A study of Homo sapiens with 8 samples.

Results

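HEK293T cells, a kidney-derived human line with the SV40 large T antigen, were compared with and without NAEK, an azide-bearing lysine derivative, in 2 ribosome profiling libraries a side. These 4 libraries, chosen by their labels, are 4 of the 8 in the series. The groups are HEK293T cells given 1 mM NAEK, HEK293T cells without NAEK, transgenic HEK293T cells given 1 mM NAEK and transgenic cells without NAEK. The transgenic cells stably carry the tRNA of the Mb pyrrolysine system, and their libraries also hold reads of a pyrrolysyl-tRNA synthetase and of a GFP39 reporter. The sources used here do not give how long NAEK was present, whether the transgenic line is 1 clone, or whether replicates are separate cultures.

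In ribosome profiling, stretches of mRNA shielded from nuclease by a ribosome are sequenced, and each read marks 1 ribosome position. At a stop codon, the release factor eRF1 normally ends translation, and a ribosome that passes the stop goes on into the stretch behind it until the next stop in frame. In an amber suppression system, a pyrrolysyl-tRNA synthetase loads its tRNA with a supplied amino acid, and the loaded tRNA decodes the amber stop codon UAG. Cells without that tRNA have no means in the system to insert NAEK, so HEK293T cells with and without NAEK serve as the control for the amino acid alone. Transcripts annotated as targets of nonsense-mediated decay, the pathway that degrades mRNAs with a stop codon too far upstream, make up 17577 of the 82586 transcripts listed.

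Footprints were given per transcript in 3 regions (coding, first extended, second extended) as RPKM, reads scaled to the length of the region and the depth of the library. The extended regions are taken here as the stretches behind the stop codon and behind the next stop. Whole reads could be recovered from these values, and HEK293T libraries held 20569590 and 16197846 reads with NAEK, against 17261848 and 17630299 without it. The 8 libraries ran from 12923243 to 20569590 reads, with 89.0 to 89.1% in coding, 1.29 to 1.48% in first extended and 1.01 to 1.15% in second extended regions. The tables name transcripts and not genes, and no table used here pairs the 2, so transcripts are given by their Ensembl identifiers, no function is attached to them, and markers of the line were not checked.

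NAEK gave no called difference at the coding regions of HEK293T cells. Of 46156 coding regions with a mean of at least 1 RPKM, 0 (0%) had a limma adjusted p under the threshold of 0.05, with log2(RPKM + 1) fitted over all 8 libraries. The smallest adjusted p in limma was 0.983. An unadjusted p under 0.05 was found for 1392 regions, 800 higher and 592 lower with NAEK, and chance alone gives 2308. With each library centred on its median, 624 were higher and 769 lower. Reads are shares of a library, so a change in mRNA amount and one in ribosomes per mRNA cannot be told apart. A fit to recovered reads by voom called 1 region, and the limma fit without the minimum on low values also called 1, a region of 57 nt with 0 and 0 reads with NAEK, against 1 and 1 read without it. Both +NAEK libraries stood above both -NAEK libraries in 7227 regions (15.7%) and below both in 4827 (10.5%). Each p-value measures the spread between these libraries alone, which may be technical.

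The size of change that the data exclude depended on the coding level. A limma 95% confidence interval was computed for each region, and the median interval reached 0.38 on the log2 scale to either side of the estimate, or 1.30-fold. Of the 46156 intervals, 43029 (93.2%) lay wholly within a 2-fold change in either direction, 66.1% within 1.5-fold and 99.8% within 4-fold. In the remaining 3127 regions a 2-fold change was not excluded. These bounds, and those by level in the next paragraph, are on the log2(RPKM + 1) scale. In RPKM itself, 9266 of 46148 regions were not bounded within 2-fold.

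Among the 14279 regions at 1 to 3 RPKM, the median half-width was 0.44 on the log2 scale, and 86.9% of intervals lay within 2-fold. At 3 to 10 RPKM, with 16378 regions, the half-width was 0.39 and the share within 2-fold 93.6%. The bound tightened further with level. At 10 to 30 RPKM, with 9088 regions, the half-width was 0.32 and the share 98.1%. At 30 to 100 RPKM, with 4421 regions, it was 0.28 and 99.5%. At 100 to 300 RPKM, with 1435 regions, it was 0.26 and 99.7%, and in the 555 regions at 300 RPKM and over 0.25 and 99.5%. A 2-fold change was not excluded for 23, 5 and 3 regions in these 3 bins. The narrower bound of 1.5-fold held for 48.4% of regions at 1 to 3 RPKM, 81.1% at 10 to 30 RPKM and 94.4% at 100 to 300 RPKM, and for 89.7% at 300 RPKM and over.

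**Figure D1:**
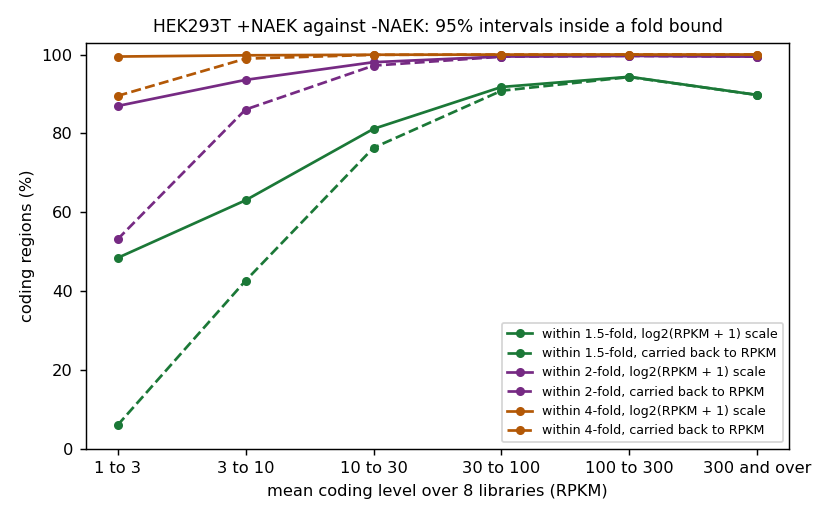
Share of coding regions (%) whose 95% interval for HEK293T +NAEK against -NAEK lies within 1.5-, 2- or 4-fold, by mean coding level (RPKM). Solid lines are on the log2(RPKM + 1) scale and dashed lines carry the bounds back to RPKM; the 2-fold lines stand at 86.9% (solid) and 53.1% (dashed) at 1 to 3 RPKM and meet at 99.5% at 30 to 100 RPKM.

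The added 1 in log2(RPKM + 1) shrinks differences of low values, so the same bounds were also carried back to RPKM. On that scale 79.9% of the 46148 intervals with a -NAEK level above 0 RPKM lay within 2-fold, with 53.1% at 1 to 3 RPKM, 86.0% at 3 to 10 RPKM and 97.2% at 10 to 30 RPKM, and the shares from 30 RPKM upward were 99.5 to 99.7%. At 1 to 3 RPKM, where a 2-fold change was excluded for about as many regions as not, 89.5% of intervals lay within 4-fold. Each interval holds for 1 region by itself. With intervals widened to hold for all 46156 regions at once, 0 lay within 2-fold and 30.4% within 4-fold, 5.01% of those at 1 to 3 RPKM and 79.1% of those at 300 RPKM and over.

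Of the 15499 regions at 10 RPKM or more, 208 were not bounded within 2-fold on the log2(RPKM + 1) scale. These were mostly decay-annotated and short. Of the 208, 129 (62.0%) belonged to decay-annotated transcripts, against 15.6% of the 15291 that were bounded, and their median length was 156 nt, against 678 nt. In 31 of the 208 the interval did not include 0. Over all regions, an unadjusted p under 0.05 was found for 2.41% at 10 to 30 RPKM and 1.09 to 2.88% in the bins above. A bound that reaches 2-fold favours large estimates, so nothing is read from the count of 31.

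The typical difference was small at every level. Its sign turned at high levels in the main fit, to an extent that varied with the normalization and the libraries used. The median log2 difference was 0.02 at 1 to 3 RPKM, 0.03 at 3 to 10 and at 10 to 30 RPKM, and 0.0021 at 30 to 100 RPKM. It was -0.02 at 100 to 300 RPKM and -0.05 at 300 RPKM and over, where 67.4% of regions were lower with NAEK. With quantile normalization these 2 medians were 0.00089 and -0.0065. Without each HEK293T library in turn they ran from -0.042 to 0.0031 and from -0.099 to -0.013. With each library centred on its median, the median was -0.0022 already at 1 to 3 RPKM and -0.074 at 300 RPKM and over. In the 555 most densely covered regions, both +NAEK libraries stood below both -NAEK libraries in 84 (15.1%) and above both in 29 (5.23%). Over all 46156 regions these shares were 10.5% and 15.7%. An unadjusted p under 0.05 was found for 3.02% of all regions and for 16 (2.88%) of these 555. Between single libraries the median there ran from -0.13 (+NAEK replicate 1 against -NAEK replicate 2) to 0.03 (+NAEK replicate 2 against -NAEK replicate 1). It was -0.06 between the libraries numbered 1 and -0.04 between those numbered 2. In transgenic cells the median difference of the same regions was -0.06.

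**Figure D2:**
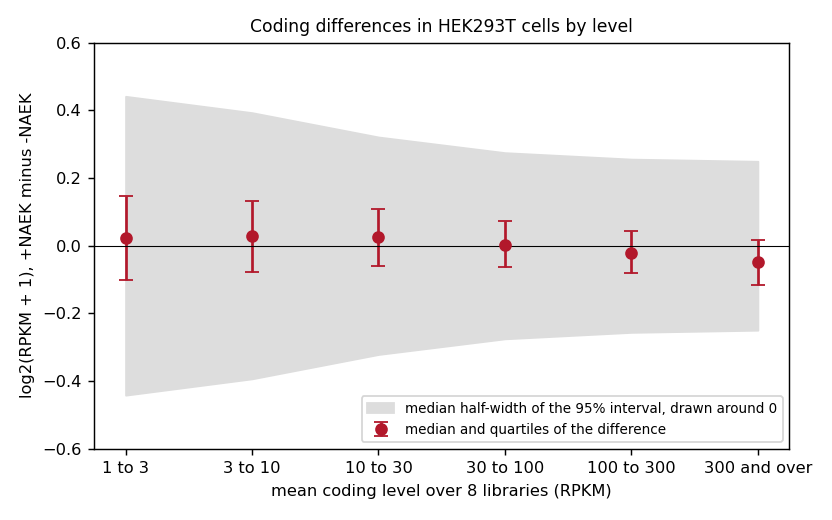
Median and quartiles (points and bars) of the log2(RPKM + 1) difference, HEK293T +NAEK minus -NAEK, by mean coding level (RPKM), over a grey band that shows the median half-width of the 95% interval around 0. Medians run between -0.05 and 0.03, inside a band that narrows to 0.25 at 300 RPKM and over.

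Single HEK293T libraries differed within a group about as much as between groups, and least between libraries of the same number. The median absolute log2 difference over the 46156 regions was 0.174 between both +NAEK libraries and 0.199 between both -NAEK libraries. Across the groups it was 0.129 between the libraries numbered 1 and 0.140 between those numbered 2. With the numbers crossed it was 0.210 and 0.170. A difference of more than 2-fold on this scale was seen in 1.18% of regions between the +NAEK libraries and in 1.39% between the -NAEK libraries, against 0.901 to 1.37% between libraries of different groups.

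**Figure D3:**
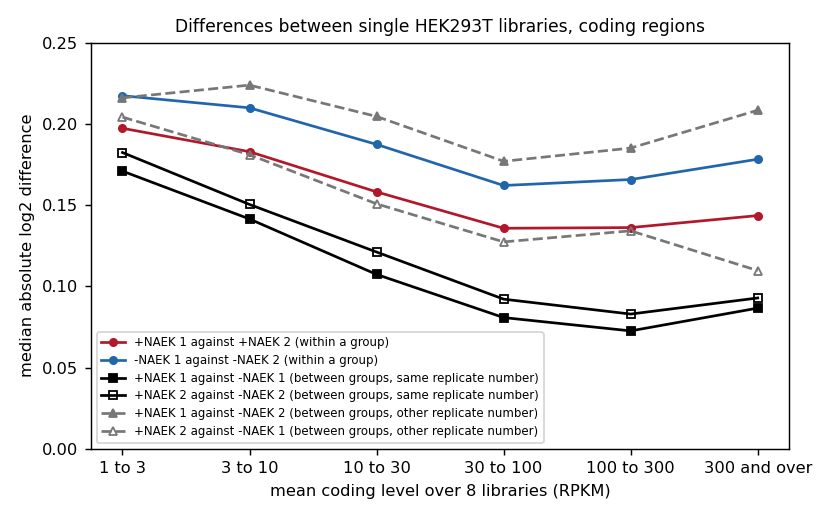
Median absolute log2(RPKM + 1) difference between 2 single HEK293T libraries by mean coding level (RPKM), 1 line a pair, with pairs of 1 group coloured and pairs across groups black (same replicate number) or grey (other number). The black lines lie below all others, at 0.171 and 0.182 at 1 to 3 RPKM.

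The coding regions with the smallest p at 10 RPKM or more are given next with their values in both lines. ENST00000532192, protein-coding with a region of 221 nt, had 17.2 and 19.3 RPKM with NAEK, against 7.602 and 8.47 RPKM without it. These rest on 78 and 69 reads, against 29 and 33. The groups did not overlap. The log2 difference was 1.09 (SE 0.19, limma adjusted p = 1.00). Transgenic cells had 10.8 and 7.35 RPKM with NAEK, against 10.4 and 13.5 RPKM without it, which overlap. ENST00000551489, with a region of 171 nt, had 30.1 and 24.2 RPKM with NAEK, against 15.6 and 16.3 RPKM without it (log2 0.73, SE 0.13, limma adjusted p = 1.00). All 4 transgenic libraries of this transcript lay between 23.6 and 30.8 RPKM.

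Toward lower values, ENST00000359303, with a region of 411 nt, had 13.8 and 18.3 RPKM with NAEK, against 30.02 and 38.5 RPKM without it. The groups did not overlap here either. The log2 difference was -1.05 (SE 0.18, limma adjusted p = 1.00). In transgenic cells it had 14.7 and 17.5 RPKM with NAEK, against 19.5 and 23.4 RPKM without it, also without overlap. ENST00000244534, with a region of 666 nt, had 268 and 314 RPKM with NAEK, against 388 and 468 RPKM without it. These rest on 3673 and 3387 reads, against 4458 and 5496, and did not overlap. Its log2 difference of -0.55 (SE 0.12) did not pass in limma. Transgenic cells had 446 and 451 RPKM with NAEK, against 545 and 546 RPKM without it, without overlap (log2 -0.28, limma adjusted p = 0.835). ENST00000344777, with a region of 903 nt, was the 1 coding region that voom called, and was chosen after its values were seen. It had 49 and 36 reads with NAEK, against 118 and 141 without it, or 2.55 ± 0.125 RPKM, against 8.21 ± 0.910 RPKM (SD, n = 2). Its log2 difference was -1.37 (SE 0.15), with an adjusted p of 0.983 in limma and 0.0173 in voom, and from 0.0173 to 1.00 over its 14 alternatives. Transgenic cells had 3.48 ± 0.649 RPKM with NAEK, against 4.58 ± 0.172 RPKM without it. The difference between the lines in its NAEK effect did not pass (log2 -1.05, limma adjusted p = 1.00).

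The first extended regions held a slightly larger share of footprints with NAEK, and 1 transcript accounted for more than the whole difference. In the 30505 transcripts whose coding reads averaged 50 or more, without the transgenes, first extended reads came to 1.0899 and 1.0958% of coding reads with NAEK, against 1.0579 and 1.0646% without it. The means were 1.093 ± 0.0042% and 1.061 ± 0.0048% (SD, n = 2), a difference of 0.0316 percentage points without overlap (two-sided exact permutation p = 0.33, the smallest that 2 libraries against 2 allow).

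ENST00000358465, a protein-coding transcript with a first extended region of 153 nt, supplied 0.0379 of these points, 119.7% of the difference. That was 34.0 times the next contribution. Its region held 16263 and 6375 reads with NAEK, against 5940 and 3313 without it, or 5168 and 2572 RPKM, against 2249 and 1228 RPKM. Replicate 1 with NAEK stood highest of all 8 libraries, and replicate 2 with NAEK stood near replicate 1 without it. Transgenic libraries had 2571 and 1768 RPKM with NAEK, against 2129 and 2017 RPKM without it, and 3 of these 4 lay between the HEK293T -NAEK values. The mean was 2.23-fold higher with NAEK in HEK293T cells, and the log2 difference of 1.13 (95% interval 0.16 to 2.10) did not pass in limma (adjusted p = 1.00). Voom called it (adjusted p = 7.59e-05). The log2 difference between the lines was 1.09 (limma adjusted p = 0.689).

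Its coding region, 3384 nt long, held far fewer footprints, with 832 and 625 reads with NAEK, against 649 and 546 without it. In RPKM these were 11.95 and 11.4, against 11.1 and 9.15, a log2 difference of 0.19 with a 95% interval of -0.11 to 0.50. Density in the first extended region was thus 432 and 226 times the coding density with NAEK, against 202 and 134 times without it. The region alone took 4.80% of all first extended reads of HEK293T libraries.

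Without this 1 transcript the difference in share was -0.0062 percentage points, a sign that follows from its contribution being larger than the difference, so it was not tested. The shares were then 0.998 and 1.050% with NAEK, against 1.018 and 1.043% without it, and the groups overlapped. The SD between the +NAEK libraries was 0.037 points without it and 0.0042 points with it, since replicate 1 was lower than replicate 2 in the remaining transcripts and higher in this one. The contribution of the transcript was 0.0148 points without +NAEK replicate 1, 0.0609 points without +NAEK replicate 2, and 0.0469 and 0.0288 points without -NAEK replicate 1 or 2. Leaving out the 10 transcripts with the most first extended reads, 14.3% of these reads, gave a difference of 0.00018 points.

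**Figure D4:**
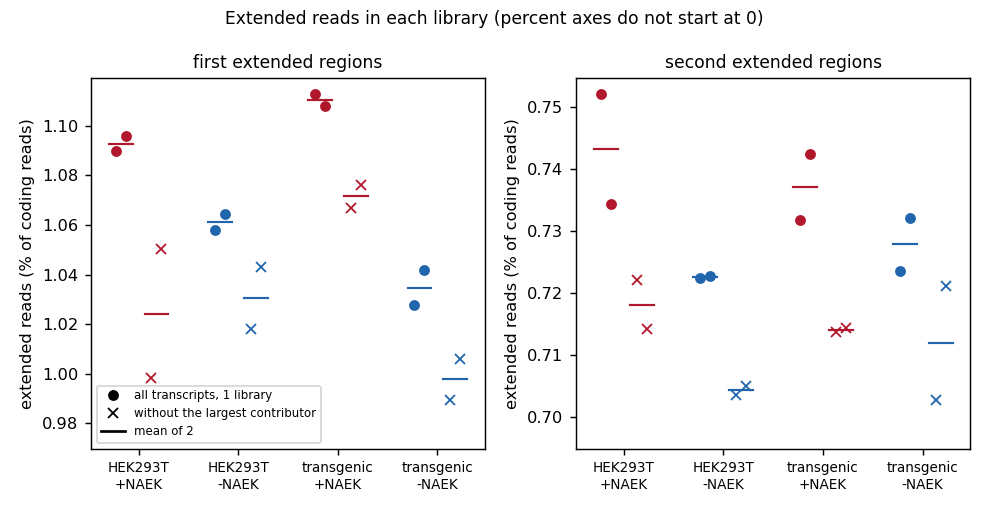
Extended reads as a percentage of coding reads in each library, for all transcripts (dots) and without the largest contributor (crosses), in first (left) and second (right) extended regions. Short lines are means of 2 libraries; without the largest contributor, HEK293T first extended shares stand at 0.998 and 1.050% in +NAEK libraries, against 1.018 and 1.043% in -NAEK libraries, and overlap.

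Beyond this transcript, contributions to the first extended share were small and ran in both directions. Positive contributions came from 9147 transcripts and summed to 0.138 points, and negative ones from 9063 and summed to -0.106 points. Decay-annotated transcripts were 3339 of the 30505, with a mean first extended share of 9.09% with NAEK, against 0.615% in protein-coding ones. Of the 10 largest positive contributions, the 9 after the first summed to 0.0056 points, and 6 of the 10 were decay-annotated. Both +NAEK libraries stood above both -NAEK libraries in 4 of these 10, and below both in 4 of the 10 most negative. Over all 7800 endogenous first extended regions with enough reads to be tested, this was so for 15.9% and 13.3%. The members were ranked by this difference, so nothing is read from those counts.

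ENST00000265340, next but one in rank, had a first extended region of 360 nt with 251 and 248 reads with NAEK, against 76 and 102 without it. In RPKM these were 33.9 and 42.5, against 12.2 and 16.1, without overlap and with a 2.70-fold higher mean. The log2 difference of 1.37 (95% interval 0.42 to 2.33) did not pass in limma (adjusted p = 1.00), and voom called it (adjusted p = 0.00329). Transgenic libraries lay at 25.7 and 34.8 RPKM with NAEK, against 16.9 and 32.7 RPKM without it. Its contribution was 0.0010 points. The second in rank, with another region of 360 nt, had 53.6 and 41.8 RPKM with NAEK, against 26.2 and 15.9 RPKM without it, and was highest of all in a transgenic library without NAEK (55.8 RPKM).

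The most negative contribution, -0.0031 points, was that of ENST00000578181, whose first extended region is 24 nt long. It had 5747 and 3552 RPKM with NAEK, against 7309 and 4195 RPKM without it. The groups overlapped, and replicate 1 was the higher one in both. ENST00000599561, with a region of 141 nt and -0.0012 points, had 547 and 619 RPKM with NAEK, against 580 and 731 RPKM without it. These also overlapped, with replicate 2 the higher one in both groups. Neither passed (limma adjusted p = 1.00 each).

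**Figure D5:**
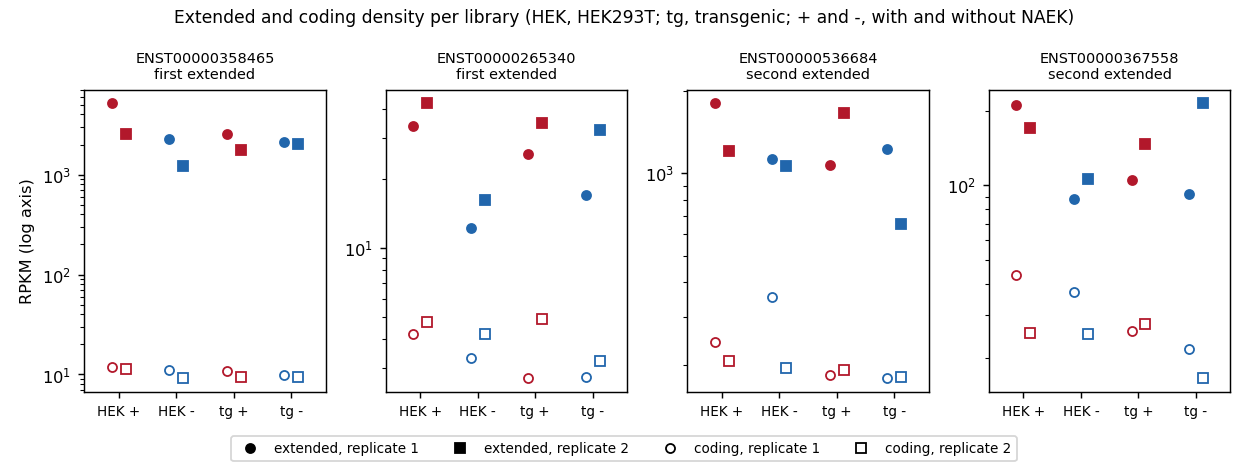
Density (RPKM, log axes) of the extended region (filled) and the coding region (open) of 4 transcripts in every library, circles for replicate 1 and squares for replicate 2. ENST00000358465 reaches 5168 RPKM in HEK293T +NAEK replicate 1, against 1228 to 2572 RPKM in the other libraries, while its coding density stays between 9.15 and 11.95 RPKM.

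First extended regions were also grouped by how dense they are relative to coding in the 4 transgenic libraries, which leaves HEK293T values out of the choice. In the 10158 transcripts with a density above 0 and under 10% of coding, the HEK293T share was 0.211 and 0.244% with NAEK, against 0.225 and 0.228% without it, with overlap and a mean difference of 0.00094 points. In transgenic cells, whose values set the group, the same transcripts stood at 0.253 and 0.255% with NAEK, against 0.193 and 0.193% without it. The difference of these differences, HEK293T minus transgenic, was -0.0602 points and is given as a description. In the 6209 transcripts at 10 to 100% of coding, HEK293T shares were 2.17 and 2.36% with NAEK, against 2.21 and 2.38% without it, and overlapped. In the 1416 at or above coding density they were 26.1 and 24.3%, against 24.0 and 23.4%, without overlap (exact permutation p = 0.33). Without ENST00000358465, which is in that group, these became 22.2 and 22.4%, against 22.3 and 22.5%, and overlapped.

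By transcript type, protein-coding transcripts had a first extended share of 0.619 and 0.611% with NAEK, against 0.577 and 0.569% without it. Without the largest contributor this was 0.522 and 0.562%, against 0.534 and 0.546%, and the groups overlapped. Decay-annotated transcripts had 9.07 and 9.11% with NAEK, against 9.06 and 9.09% without it, a difference of 0.0165 points with overlap.

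No single first extended region passed the test in HEK293T cells. Of 7801 regions, 0 (0%) passed in limma, and 284 had an unadjusted p under 0.05, with 390 given by chance. Voom called 2, both named above. The bound was looser here than at coding regions. Intervals lay within 2-fold for 13.0% of first extended regions and within 4-fold for 62.9%. Among the 202 regions with 1000 reads or more over the 8 libraries, 84.7% lay within 2-fold. This was so for 9.13% of the 3954 with 10 to 29 reads and for 3.29% of the 2218 with 30 to 99 reads. These bounds are on the log2(RPKM + 1) scale, where the added 1 shrinks differences of low values. They were not carried back to RPKM. In transgenic cells 136 of the 7801 (1.74%) passed for NAEK. The test of the difference between the lines passed for 0 (0%) in limma. Its unadjusted p was under 0.05 for 679 regions, where chance gives 390. Of these 679, 505 were lower in the HEK293T effect and 174 higher. Voom called 22 for this difference, 20 lower and 2 higher.

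The second extended share was also higher with NAEK, and its difference was spread over several transcripts. Second extended reads came to 0.752 and 0.734% of coding reads with NAEK, against 0.7225 and 0.7228% without it, a difference of 0.0206 points. The groups did not overlap (exact permutation p = 0.33). The difference was 0.0118 points without +NAEK replicate 1 and 0.0295 points without +NAEK replicate 2. Over transcripts averaging 500 coding reads or more it was 0.0117 points. On summed RPKM in place of reads, both the first and the second extended share overlapped between groups (exact permutation p = 0.67 each). Transgenic shares were 0.732 and 0.742% with NAEK, against 0.724 and 0.732% without it, with overlap.

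ENST00000536684, a protein-coding transcript with a short coding region of 75 nt and a second extended region of 144 nt, contributed 0.0068 points, or 33.1%. Its region held 5328 and 2824 reads with NAEK, against 2809 and 2693 without it. These were 1799 and 1211 RPKM, against 1130 and 1061 RPKM, so replicate 1 with NAEK stood apart from the other 3. The log2 difference of 0.43 (95% interval -0.43 to 1.29) did not pass (limma adjusted p = 0.995). Transgenic libraries ran from 654 to 1653 RPKM, a range that holds both -NAEK values and +NAEK replicate 2 of HEK293T cells. The contribution was 0.0019 points without +NAEK replicate 1 and 0.0118 points without +NAEK replicate 2. Without the transcript the share still differed, by 0.0138 points and without overlap.

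ENST00000367558 came next with 0.0021 points and a second extended region of 192 nt. It had 210 and 170 RPKM with NAEK, against 87.8 and 106 RPKM without it, a 1.96-fold higher mean and no overlap (log2 0.96, limma adjusted p = 0.995). In transgenic cells the order was not the same, at 105 and 148 RPKM with NAEK, against 92.6 and 214 RPKM without it.

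Protein-coding transcripts as a class had a second extended share of 0.277 and 0.253% with NAEK, against 0.243 and 0.237% without it, which did not overlap. Decay-annotated transcripts had 8.81 and 8.69% with NAEK, against 8.71 and 8.59% without it, a difference of 0.104 points with overlap. The 10 largest positive contributions came from protein-coding transcripts and the 10 most negative from decay-annotated ones, although the decay-annotated class was not lower as a whole. These classes hold 27165 and 3339 of the 30505 transcripts, and the members were ranked by value, so nothing is read from their types. Leaving out the 10 largest positive contributions, 4.97% of second extended reads, lowers the difference by construction, here to 0.0026 points. The difference was 0.0158 points without the 10 transcripts with the most second extended reads and 0.0055 points without the 10 contributions largest in size. Fold differences among the 10 largest positive contributions ran from 1.37 to 3.46, and none passed (lowest limma adjusted p 0.983). In 9 of the 10, +NAEK replicate 1 was highest of the 4 HEK293T libraries, and in 9 of the 10, -NAEK replicate 2 was highest of the 4 transgenic libraries. Both +NAEK libraries stood above both -NAEK libraries in 9 of the 10, a property for which they were in effect ranked, where 17.2% of all 3237 endogenous regions tested did. Coding log2 differences of the 10 lay between -0.23 and 0.21. Some of the 10 look alike in the tables. Of a pair with regions of 237 nt, 1 had 666 and 175 reads with NAEK, against 133 and 88 without it. The other had 657 and 164 reads in +NAEK libraries, against 122 and 90 in -NAEK libraries. Whether such pairs share reads of 1 gene was not tested.

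On the negative side, ENST00000420712, with a second extended region of 54 nt, had 1013 and 1078 RPKM with NAEK, against 1061 and 1298 RPKM without it. ENST00000474384, with a region of 681 nt, had 116 and 140 RPKM with NAEK, against 122 and 154 RPKM without it. Both overlapped between groups (limma adjusted p = 0.995 each). Both +NAEK libraries stood below both -NAEK libraries in 5 of the 10 most negative, and in 12.5% of all regions tested. The 10 were ranked by this difference, so nothing is read from that count.

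Of 3238 second extended regions, 0 (0%) passed for NAEK in HEK293T cells by limma, and 0 by voom. An unadjusted p under 0.05 was found for 128, where chance gives 162. With a pseudocount of 0.1 limma called 3, of 6 to 27 nt, none with more than 5 reads in a HEK293T library. Intervals lay within 2-fold for 19.3% of regions and within 4-fold for 70.9%, on the log2(RPKM + 1) scale only. In transgenic cells 2 passed (0.0618%). The difference between lines passed for 1 region (0.0309%), that of ENST00000496634, decay-annotated and 9 nt long. It had 10 and 6 reads in HEK293T cells with NAEK, against 6 and 5 without it, and in transgenic cells 9 and 5 with NAEK, against 0 and 0 without it. The interaction was -5.25 on the log2 scale (limma adjusted p = 0.0284), and in HEK293T cells the log2 difference was 0.42 (limma adjusted p = 0.995).

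The transgenes served as a check of the line labels only, since they cannot tell which HEK293T libraries were given NAEK. The synthetase entry had 7.24 and 9.67 RPKM in HEK293T cells with NAEK, against 11.4 and 9.81 RPKM without it, on 192 and 202 reads, against 254 and 223. These HEK293T levels were 0.151% of the transgenic level with NAEK and 0.187% without it. The GFP39 coding region had 8.78 and 8.15 RPKM in HEK293T cells with NAEK, against 21.7 and 10.2 RPKM without it, on 26 and 19 reads, against 54 and 26. Its first extended region held 12 and 8 reads with NAEK, against 18 and 19 without it, and its second 0 in all 4 libraries. A floor of 3 reads is at most 1.85e-05% of an HEK293T library. How these few reads came into libraries of cells that lack the transgenes was not tested.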

How the data were processed

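Ribosome profiling libraries of 4 groups of 2 were taken as deposited. TruSeq Ribo Profile kits were used, per the labels' protocols, and per the submitters' processing notes Bowtie 1.2.2 and the build hg38 were used. The sources used here do not give the annotation, the read filters or the handling of reads shared by isoforms. The authors deposited RPKM values per transcript region, per the file headers. Whole reads were recovered from them through the synthetase entry of 1290 nt, and 100% of values above 0 came out whole within 0.01 reads. Region lengths were recovered too, as the shortest that make all reads whole, so thin regions can be longer than given. Because the unit is RPKM, values were fitted as log2(RPKM + 1) over all 8 libraries with limma 3.58.1 (R 4.3.3), a variance trend and Benjamini-Hochberg adjustment. voom in limma on the recovered reads was an alternative. A fold difference is on the log2(value + 1) scale where a log2 value is given. Extended regions needed a mean of 50 coding reads and 10 reads in the region. The test was tried on simulated data. Contributions are a transcript's extended reads in percent of all coding reads, +NAEK minus -NAEK means. Shares and figures used matplotlib 3.10.9, scipy 1.17.1, pandas 2.3.3, numpy 2.4.6 and Python 3.11.15.

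The comparison, the transcripts and the lists were chosen with earlier results of these data known. Named transcripts are those of smallest p at 10 RPKM or more and those of largest contribution in each direction, at most 2 a direction and region since the files do not pair them with genes. Besides these, ENST00000344777 is named as the coding region that voom called. For the same reason the gene lists and cell markers of the design were not used. Same-numbered libraries are not stated to share a culture or day, and with 2 pairs no pairing was assumed. Counting error is the only error a floor of reads covers.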

Additional observations from a re-analysis of the deposited data

Results flagged for a closer look

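ENST00000496634 was picked out because the NAEK difference of its second extended region was not the same in the 2 lines by the test of that difference (log2 -5.25, HEK293T minus transgenic, limma adjusted p = 0.0284). Its region is 9 nt long and its 2 transgenic libraries without NAEK hold 0 reads. The call was absent without any 1 of the 4 HEK293T libraries.

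The GFP39 reporter (pSD31-GFP39-I-H) was picked out because its libraries moved in opposite directions in the 2 lines without overlap. Its coding mean was 0.529 times as high with NAEK as without it in HEK293T cells and 1.78 times in transgenic cells. In HEK293T cells its log2 difference was -0.76, and -0.25 without -NAEK replicate 1, so its size rests on that library. Its first extended mean was 0.508 times as high in HEK293T cells and 9.79 times in transgenic cells. The test of the difference did not pass for the coding region (log2 -1.59, limma adjusted p = 1.00) or for the first extended region (log2 -3.80, limma adjusted p = 0.114).

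Reads of both transgenes in HEK293T libraries were picked out because cells without the transgenes should give none. The synthetase had 192 and 202 coding reads with NAEK, against 254 and 223 without it, and GFP39 26 and 19, against 54 and 26, all above the floor of 3 reads. Their source was not tested.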

How the results depend on the processing

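Counts of calls for NAEK in HEK293T cells moved off 0 under few settings. Coding regions gave 1 with no filter on low values and 1 with voom, first extended regions 2 with voom, and second extended regions 3 with a pseudocount of 0.1. The counts were 0 without each HEK293T replicate in turn. For the difference between the lines, whose alternatives were chosen after seeing the data, first extended regions gave 17 with the stricter filter, all lower in the HEK293T effect, and 22 with voom. Second extended regions gave 4 with a pseudocount of 0.1, 2 without the variance trend, and 0 with a pseudocount of 5, with no filter, with the stricter filter, with voom, with the replicate block and without each HEK293T replicate. The cause was not tested. Regions bounded within 2-fold, 43029 as reported, numbered 37783 with a pseudocount of 0.1, 37722 with voom, 43381 with only the 4 HEK293T libraries, 42949 without the trend, 39730 to 40279 without each replicate and 0 with intervals for all regions at once, an alternative chosen after seeing the data that widens every interval.

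The first extended share differed by 0.0282 to 0.0350 points without each replicate and by -0.0062 points without its largest contributor, chosen after seeing the data. The second extended share differed by 0.0118 to 0.0295 points without each replicate and by 0.0117 points over transcripts averaging 500 coding reads or more. On summed RPKM both shares were higher with NAEK, by 0.345 and 0.299 points, with overlap (exact permutation p = 0.67 each). Without each replicate, 3 named regions that were not called changed sign on the log2 scale. ENST00000578181 ran from -0.69 to 0.11 (0.05 without +NAEK replicate 2, 0.11 without -NAEK replicate 1). ENST00000599561 ran from -0.33 to 0.0047 (without -NAEK replicate 2). ENST00000474384 ran from -0.26 to 0.062 (0.03 without +NAEK replicate 1, 0.062 without -NAEK replicate 2).

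Same-numbered HEK293T libraries deviated together, a hint from the data only. The replicate 1 minus replicate 2 differences of the 2 HEK293T groups had r = 0.324 over coding regions, which are not independent, and 0.608 at 10 RPKM or more. Between a HEK293T and a transgenic group r was 0.137 to 0.190, and 0.287 to 0.396 at 10 RPKM or more. Between the 2 transgenic groups it was 0.048 and 0.116. With the replicate number as a block, coding calls stayed at 0, unadjusted p under 0.05 numbered 2416 in place of 1392, and 43578 regions were bounded within 2-fold. At 300 RPKM and over, 95 of 555 (17.1%) then had an unadjusted p under 0.05, in place of 16 (2.88%). The block was also fitted on only the 4 HEK293T libraries, an alternative chosen after seeing the data. Coding calls were again 0, but 3281 regions had an unadjusted p under 0.05, where chance gives 2308. At 300 RPKM and over these were 147 of 555 (26.5%). The share differences had an exact permutation p of 0.5 in the paired form, the smallest that 2 pairs allow. An alternative with 1 transcript per gene was not run, since transcripts carry no gene names.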
